A study of Mus musculus with 9 samples.

Results

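The insulin-like growth factor (IGF) system was examined in sorted mouse skin cells through 10 of its genes, chosen by symbol from the 49671 genes of the deposited count table: the ligands Igf1 and Igf2, the receptors Igf1r and Igf2r, and the binding proteins Igfbp2 to Igfbp7. All 10 were found, and all 10 passed the filter on low counts that left 18435 genes to be tested. The study asked how filaggrin deficiency alters gene expression in keratinocytes. It compared 5 Flg wt/wt samples with 4 Flg ko/ko samples, where Flg encodes filaggrin, a protein of the outermost epidermis. All 9 samples were cells sorted by flow cytometry from epidermal preparations, without the leukocyte marker CD45 and with CD49f, an integrin chain that anchors basal keratinocytes. Strain, age, sex, the construction of the Flg ko allele and treatment are not stated in the labels, and no Cre or transgene is named. Each title carries its own identifier but does not say that samples are separate animals, so p-values measure the spread between these samples, which may be technical.

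IGF1 and IGF2 are secreted growth factors that act through the type 1 IGF receptor, a tyrosine kinase related to the insulin receptor, which feeds the PI3K-AKT and MAPK cascades. The type 2 receptor, which also carries mannose-6-phosphate-tagged enzymes to lysosomes, removes IGF2 from the cell surface and does not relay its growth signal in the same way. Binding proteins hold IGFs in the extracellular fluid, lengthen their life, and either limit or assist their access to receptors, until proteases release them. In skin, dermal fibroblasts are a main source of IGF1, and keratinocytes respond to it through the type 1 receptor.

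Library totals ran from 15601859 to 23200440 counts, and before TMM adjustment 1 count was worth 0.0431 to 0.0641 CPM, the count scaled to a common library size. Counts of Flg were 0 to 6 a library, too few to check the genotype labels. Summed transcripts of the fibroblast markers stood far above the sum for the sorted cell type in every library. The 12 fibroblast markers summed to between 14897 and 35877 CPM, whereas the 10 basal keratinocyte markers summed to between 1503 and 3155 CPM. These sums are not corrected for gene length. Dcn alone averaged 15946 of a mean fibroblast sum of 25729 CPM in wt/wt, and 17100 of 27472 CPM in ko/ko. In wt/wt, Lum, Col1a1, Col1a2, Col3a1 and Col6a1 also averaged more than the keratinocyte marker Krt14 (1146 CPM). The other fibroblast markers, Pdgfra, Dpt, Mfap5, Fbln1, Fbln2 and Pi16, averaged 72.8 to 195 CPM there. The lowest fibroblast sums were 18835 CPM in ko/ko replicate 1, 16340 CPM in wt/wt replicate 1 and 14897 CPM in wt/wt replicate 2, against at least 21590 CPM in the other 6 libraries. Lymphatic endothelial markers, 6 genes, summed to 395 to 858 CPM in wt/wt and 209 to 314 CPM in ko/ko, without overlap. Myeloid markers, 15 genes, summed to 22.9 to 100 CPM in wt/wt and 45.8 to 463 CPM in ko/ko. The cells are therefore called sorted skin cells here. In such bulk libraries, fewer cells of a type and less RNA per cell cannot be told apart.

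The 10 genes lie on 7 chromosomes of the mm10 assembly, with Igfbp2 and Igfbp5 close together in convergent orientation on chromosome 1 (plus strand, 72824503 to 72852474, and minus strand, 72857932 to 72874884). Igf1 lies on chromosome 10 (plus strand, 87858265 to 87937042) and Igf2 on chromosome 7 (minus strand, 142650766 to 142666816). Igf1r lies on the same chromosome (plus strand, 67952827 to 68233668), and Igf2r on chromosome 17 (minus strand, 12682406 to 12769664). Igfbp3 and Igfbp4 are both on chromosome 11 (minus strand, 7206086 to 7213923, and plus strand, 99041244 to 99054392). Igfbp6 is on chromosome 15 (plus strand, 102144362 to 102149511) and Igfbp7 on chromosome 5 (minus strand, 77349240 to 77408041). All 10 are protein-coding, and counts cover their exons, untranslated regions included. The exons of Igf2 share 98 bases with the antisense gene Igf2os, which had 12 counts over the 9 libraries, and 3596 bases with Gm49394, for which the count table has no row. The exons of Igfbp7 share 85 bases with Polr2b on the opposite strand, a gene with 16131 counts over the 9 libraries, and without stated strand handling the reads of such stretches cannot be told apart.

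The starts of 6 members are shown because they include both receptors, which had the smallest p-values of the family, the ligand Igf1, and 3 binding proteins whose starts differ in base composition and motifs. The 250 bases before each RefSeq start (GRCm38.p6, the assembly also called mm10) are printed 5′ to 3′ on the gene's strand, with matches to the searched motifs in capitals. The motifs, searched on both strands, were the TATA box TATAAA, the GC box GGGCGG bound by SP1-type factors, the E-box CACGTG, and the FOXO site GTAAACA. A RefSeq start may differ from the start of the counted gene, as for Igf1r, where it is at 67952257, upstream of the counted exons. For Igf1 it is at 87861111, whereas the counted gene begins at 87858265, so the bases shown lie inside the counted gene.
Igf1r: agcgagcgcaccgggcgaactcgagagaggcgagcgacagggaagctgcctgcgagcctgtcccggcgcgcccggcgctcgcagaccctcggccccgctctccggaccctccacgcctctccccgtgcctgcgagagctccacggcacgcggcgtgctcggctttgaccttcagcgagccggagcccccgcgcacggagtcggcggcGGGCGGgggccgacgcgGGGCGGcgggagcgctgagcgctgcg
Igf2r: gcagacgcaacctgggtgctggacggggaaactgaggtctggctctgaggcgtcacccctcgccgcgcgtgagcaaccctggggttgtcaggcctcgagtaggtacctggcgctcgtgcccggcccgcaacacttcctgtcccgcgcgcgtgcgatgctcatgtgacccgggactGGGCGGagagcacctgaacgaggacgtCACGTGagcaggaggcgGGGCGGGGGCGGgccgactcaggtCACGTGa
Igf1: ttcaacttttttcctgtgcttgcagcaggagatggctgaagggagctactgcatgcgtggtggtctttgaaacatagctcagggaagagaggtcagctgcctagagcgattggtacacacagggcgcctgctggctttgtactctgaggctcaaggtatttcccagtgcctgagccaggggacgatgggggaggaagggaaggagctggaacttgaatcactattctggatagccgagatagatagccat
Igfbp5: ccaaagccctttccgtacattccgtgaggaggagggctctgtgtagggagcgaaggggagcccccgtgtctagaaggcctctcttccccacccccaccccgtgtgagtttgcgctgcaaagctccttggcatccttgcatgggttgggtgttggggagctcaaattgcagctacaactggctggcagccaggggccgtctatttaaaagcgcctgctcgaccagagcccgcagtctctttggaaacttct
Igfbp6: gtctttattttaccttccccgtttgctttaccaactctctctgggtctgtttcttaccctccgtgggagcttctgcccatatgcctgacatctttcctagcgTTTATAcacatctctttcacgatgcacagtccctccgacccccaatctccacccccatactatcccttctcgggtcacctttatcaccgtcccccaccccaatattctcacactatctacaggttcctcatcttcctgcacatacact
Igfbp4: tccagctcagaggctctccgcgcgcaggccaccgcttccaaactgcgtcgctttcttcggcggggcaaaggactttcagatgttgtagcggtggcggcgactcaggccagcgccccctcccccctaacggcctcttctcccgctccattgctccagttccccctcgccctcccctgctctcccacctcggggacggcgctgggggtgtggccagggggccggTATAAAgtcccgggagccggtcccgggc
The regions are chr7:67952007-67952256 (plus) for Igf1r, chr17:12769707-12769956 (minus) for Igf2r, chr10:87860861-87861110 (plus) for Igf1, chr1:72874866-72875115 (minus) for Igfbp5, chr15:102143936-102144185 (plus) for Igfbp6 and chr11:99040994-99041243 (plus) for Igfbp4. The search itself covered 300 bases, from 250 before the start to 50 after it. Both receptor starts were rich in G and C, with 76% GC and 48 CpG dinucleotides for Igf1r and 70.7% GC and 34 CpG for Igf2r, against a median of 52.7% GC and 7 CpG over 32851 mouse windows. This was not particular to the receptors. Igfbp3 had 71.7% GC and 37 CpG, Igfbp4 71.3% and 27, and Igfbp7 73.3% and 33 with 4 GC boxes. The first window of Igfbp2 had 67% GC, 18 CpG, 3 GC boxes and 1 E-box, while Igfbp6 had 49.7% GC and 8 CpG. Igf1r had 2 GC boxes, whose first bases lie at -43 and -26 from the start. Igf2r had 3 GC boxes, at -75, -31 and -25, and 2 E-boxes, at -48 and -7. The last 2 GC boxes of Igf2r abut each other and appear as 1 run of capitals. A GC box was present in 35.7% of all windows and the E-box in 7.15%. The Igf1 start shown, with 52.3% GC and 6 CpG, and the Igfbp5 start, with 56.3% GC and 10 CpG, held none of the motifs. Igfbp4 had a TATA box at -28, and Igfbp6 had TATAAA on the minus strand at -148, a match present in 13.6% of windows on either strand. The FOXO site, found in 3.65% of windows, was in none of the windows of the 10 members. These matches describe letters in the windows and are not evidence of binding.

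Compared per exon length, as RPKM, which is CPM divided by exon length in kilobases, Igfbp6 was the most abundant member in both genotypes, and the receptors and Igf2 were the least abundant. Igfbp6, a binding protein with a preference for IGF2, averaged 321 ± 184 RPKM (SD, n = 5) in wt/wt and 401 ± 75.6 RPKM (SD, n = 4) in ko/ko. By mean RPKM over all libraries it ranked 143rd of the 18435 genes tested. In wt/wt, Igfbp2 (74.9 ± 28.1 RPKM), Igfbp7 (68.3 ± 36.7 RPKM), Igfbp5 (64.2 ± 29.1 RPKM), Igfbp3 (49.7 ± 29.0 RPKM), Igf1 (46.5 ± 20.7 RPKM) and Igfbp4 (31.6 ± 16.0 RPKM; SD, n = 5 each) followed. The ranges of neighbours in this stretch overlapped, so their order is not resolved. Igf2 (4.66 ± 1.23 RPKM), Igf2r (4.65 ± 0.833 RPKM) and Igf1r (3.82 ± 0.760 RPKM; SD, n = 5 each) formed a lower tier, below the range of Igfbp4 and overlapping each other.

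In ko/ko the same 2 tiers were present. Igfbp5 averaged 93.8 ± 25.9 RPKM, Igfbp2 71.1 ± 21.5 RPKM, Igfbp7 61.0 ± 8.56 RPKM, Igfbp3 48.8 ± 20.4 RPKM, Igf1 43.9 ± 15.2 RPKM and Igfbp4 29.2 ± 8.34 RPKM (SD, n = 4 each). These neighbours again overlapped, although Igfbp5 lay above Igfbp2 in each of the 4 libraries. Igf2r at 6.32 ± 0.918 RPKM and Igf1r at 6.21 ± 0.697 RPKM overlapped each other, and both lay above Igf2 at 3.74 ± 0.724 RPKM (SD, n = 4 each) with no overlap. On CPM, which favours long transcripts, Igf1 and not Igfbp6 came first in wt/wt, and Igfbp5 came first in ko/ko. Igf1 exons total 9904 bases and Igfbp5 exons 6006 bases, against 1112 bases for Igfbp6.

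**Figure D1:**
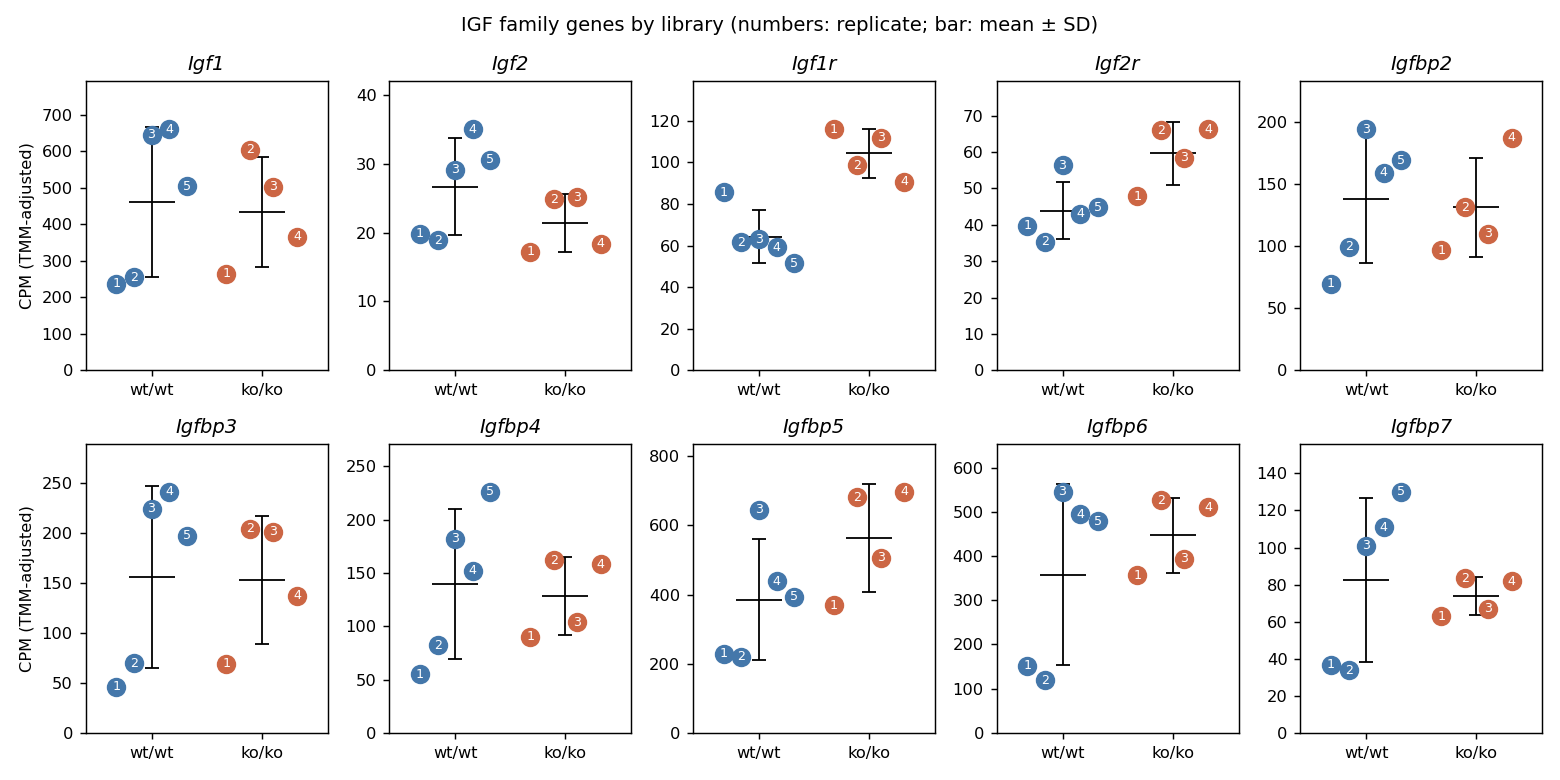
Each panel plots CPM of a family gene (linear axis from 0) by Flg genotype; each point is a library, numbered by replicate, and the bar is the mean with its SD (5 wt/wt, 4 ko/ko). All ko/ko points of Igf1r lie above all wt/wt points, while ko/ko replicate 1 and wt/wt replicates 1 and 2 are the 3 lowest libraries for Igf1 and Igfbp2 to Igfbp7.

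Between genotypes, none of the 10 members passed the adjusted threshold of 0.05 in the edgeR quasi-likelihood test, in which 0.00542% of all genes tested (1 of 18435) did. At an unadjusted p under 0.05, 2 of the 10 members passed, Igf1r and Igf2r, both with higher means in ko/ko. Over all genes, 15.3% passed that mark in either direction and 8.86% on the ko/ko-higher side, so 2 of 10 is near the background. Of the members, 4 had a positive and 6 a negative log2 fold change, with a median of -0.05, against a median of -0.03 over all genes. With library totals alone in place of TMM factors, the median of all genes moved from -0.03 to 0.08, and the number of members with a positive value went from 4 to 8.

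Igf1r encodes the type 1 receptor, the main signalling receptor for both ligands. It had 85.6, 61.7, 63.1, 59.2 and 51.5 CPM in wt/wt replicates 1 to 5, and 116, 98.6, 112 and 90.8 CPM in ko/ko replicates 1 to 4. Every ko/ko library lay above every wt/wt library, a separation that 3.51% of genes tested also had in that direction (2.74% in the other, 6.25% in all). No other member separated the genotypes. The means were 64.2 ± 12.8 CPM (SD, n = 5) and 104 ± 11.7 CPM (SD, n = 4), which gave a log2 fold change of 0.70 (SE 0.16). The difference did not pass edgeR's quasi-likelihood test with Benjamini-Hochberg adjustment (unadjusted p = 0.00113, adjusted p = 0.133). DESeq2 called it, with the same log2 fold change and an adjusted p of 0.00779, in a test that called 3.63% of genes (2.53% higher and 1.11% lower in ko/ko). Weighted limma voom, which gives less weight to libraries that vary more, also called it (0.76 on the log2 scale, adjusted p = 0.0107), with 9.77% of genes called (6.6% higher and 3.17% lower), and unweighted limma voom did not (adjusted p = 0.131). Igf1r has the longest exon total of the family, 16791 bases, and removal of the trend of every library on exon length reduced its edgeR log2 fold change to 0.41 (unadjusted p = 0.00465, adjusted p = 0.188). Whether transcript length or coverage along long transcripts has a part in the value was not tested further.

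Igf2r encodes the type 2 receptor, which clears IGF2. It had 39.7, 35.4, 56.4, 43.0 and 44.9 CPM in wt/wt replicates 1 to 5, and 47.9, 66, 58.5 and 66.3 CPM in ko/ko replicates 1 to 4. The genotypes overlapped, because wt/wt replicate 3 lay above ko/ko replicate 1. Means were 43.9 ± 7.86 CPM (SD, n = 5) and 59.7 ± 8.66 CPM (SD, n = 4), with a log2 fold change of 0.44 (SE 0.16; edgeR unadjusted p = 0.0201, adjusted p = 0.248). With the exon-length trend removed, the value was 0.32 and the unadjusted p was 0.0862. Airn, the antisense transcript of the imprinted Igf2r locus, shares no exon bases with it and had 15.5 ± 2.78 (SD, n = 5) in wt/wt against 18.4 ± 4.41 (SD, n = 4) in ko/ko on the CPM scale.

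The ratio of the receptors varied between libraries without separating the genotypes. Igf1r over Igf2r, per length, ran from 0.629 to 1.21 in wt/wt and from 0.769 to 1.36 in ko/ko. Insr, the insulin receptor, had 17.2, 18.0, 10.9, 12.9 and 10.8 CPM in wt/wt replicates 1 to 5 and 31.1, 20.5, 24.8 and 17.9 CPM in ko/ko replicates 1 to 4, and overlapped only through ko/ko replicate 4 and wt/wt replicate 2. Its log2 fold change was 0.75 (SE 0.22; edgeR adjusted p = 0.184), and weighted limma voom called it (adjusted p = 0.0167) while DESeq2 did not (adjusted p = 0.0543). Igf1r over Insr was 3.85 ± 0.698 (SD, n = 5) in wt/wt and 3.71 ± 0.477 (SD, n = 4) in ko/ko, a ratio of RPKM that differed by less than the spread between libraries.

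Neither ligand differed between genotypes past the threshold. Igf1, the ligand made by many mesenchymal cells, had 237, 255, 646, 661 and 504 CPM in wt/wt replicates 1 to 5 and 264, 605, 503 and 366 CPM in ko/ko replicates 1 to 4. Low and high libraries occurred in both genotypes, and the ranges overlapped widely. Its log2 fold change was -0.08 (SE 0.35; edgeR adjusted p = 0.929), and the sign turned to 0.05 with library totals alone. Igf2, the ligand of fetal growth, had 19.8, 18.9, 29.1, 35.0 and 30.6 CPM in wt/wt replicates 1 to 5 and 17.2, 24.8, 25.1 and 18.4 CPM in ko/ko replicates 1 to 4. The 3 highest values were all wt/wt and the 2 lowest were both ko/ko, yet the ranges overlapped. The log2 fold change of Igf2 was -0.32 (SE 0.22; edgeR unadjusted p = 0.175, adjusted p = 0.512). Per length, Igf1 exceeded Igf2 in every library, by a ratio of 6.93 to 12.8 in wt/wt and 8.86 to 14.1 in ko/ko. Igf1os, an antisense RNA at the Igf1 locus that shares no exon bases with Igf1, had 7.03 ± 1.44 (SD, n = 5) in wt/wt against 5.13 ± 1.05 (SD, n = 4) in ko/ko on the CPM scale.

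Of the binding proteins, none of which passed the threshold, Igfbp5 binds extracellular matrix as well as IGFs. Igfbp5 had 229, 221, 646, 439 and 394 CPM in wt/wt replicates 1 to 5 and 369, 681, 507 and 697 CPM in ko/ko replicates 1 to 4. The genotypes overlapped, with ko/ko replicate 1 below 3 of the wt/wt libraries. Means were 386 ± 175 CPM (SD, n = 5) and 564 ± 156 CPM (SD, n = 4), with a log2 fold change of 0.55 (SE 0.32; edgeR unadjusted p = 0.112, adjusted p = 0.438). Igfbp6 had 152, 119, 545, 494 and 479 CPM in wt/wt replicates 1 to 5 and 356, 526, 394 and 510 CPM in ko/ko replicates 1 to 4. Here wt/wt replicates 1 and 2 fell far below all the other libraries, and the remaining wt/wt libraries lay within or above the ko/ko range. Its log2 fold change was 0.32 (SE 0.42; edgeR adjusted p = 0.748). It was 0.10 without wt/wt replicate 2, 0.13 without wt/wt replicate 1 and up to 0.52 with any other library left out, and it turned to -0.08 without ko/ko replicate 1 and wt/wt replicates 1 and 2.

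Igfbp3, the main carrier of IGFs in serum, had 46.0, 69.6, 224, 241 and 197 CPM in wt/wt replicates 1 to 5 and 69.4, 204, 201 and 137 CPM in ko/ko replicates 1 to 4. Igfbp2, which carries an integrin-binding motif, had 69.5, 99.2, 194, 159 and 169 CPM and then 96.7, 131, 110 and 187 CPM in the same order. Igfbp4, an inhibitory binding protein cleaved by the protease PAPP-A, had 55.1, 82.0, 182, 152 and 226 CPM and then 90.3, 162, 104 and 158 CPM. In all 3 genes each genotype held both low and high libraries. Igfbp7, a low-affinity IGF binder of vessels and matrix, had 36.8, 33.9, 101, 111 and 130 CPM and then 62.8, 83.4, 67.1 and 81.8 CPM. The ko/ko values of Igfbp7 fell between the low pair and the high trio of wt/wt libraries. The log2 fold changes of Igfbp2, Igfbp3, Igfbp4 and Igfbp7 were -0.08 (SE 0.30), -0.02 (SE 0.48), -0.12 (SE 0.37) and -0.16 (SE 0.37), with edgeR adjusted p between 0.864 and 0.986. With library totals alone the first 3 of these turned to 0.04, 0.12 and 0.00.

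**Figure D2:**
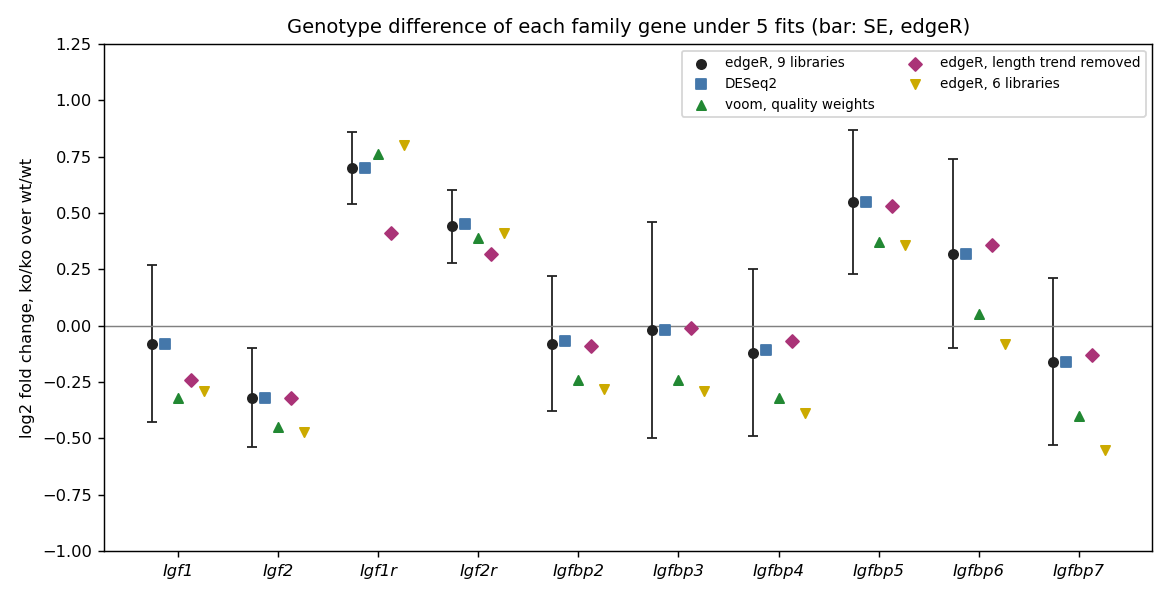
The vertical axis gives the log2 fold change, ko/ko over wt/wt, of each family gene (horizontal axis), with 1 marker for each of 5 fits; bars are the SE of the edgeR fit to all 9 libraries, and 6 libraries means without ko/ko replicate 1 and wt/wt replicates 1 and 2. Igf1r, Igf2r and Igfbp5 lie above 0 in all 5 fits shown, and Igfbp6 changes sign in the fit to 6 libraries. Igf1, Igf2, Igfbp2, Igfbp3, Igfbp4 and Igfbp7 lie below 0 in all 5.

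The spread between libraries exceeded the genotype difference for most of the family and ran in parallel across its members. For 7 of the 10 members, Igf1 and Igfbp2 to Igfbp7, the 3 lowest libraries were ko/ko replicate 1 and wt/wt replicates 1 and 2, the libraries with the lowest fibroblast marker sums. Among all genes tested, 7.11% had these 3 libraries below the other 6. Igfbp3 had at most 69.6 CPM in these 3 libraries and at least 137 CPM in the other 6, and Igf1 had at most 264 CPM and at least 366 CPM. Igf1r did not follow, since its lowest libraries were wt/wt replicates 5, 4 and 2. Igf2 and Igf2r each had 2 of the 3 among their 3 lowest. Basal keratinocyte markers summed to 2553 CPM in ko/ko replicate 1 and to 1894 and 3155 CPM in wt/wt replicates 1 and 2, against 1503 to 2694 CPM in the other 6. In the sample titles, ko/ko replicate 1 and wt/wt replicates 1 and 2 also carry lower identifiers than the other 6 libraries. What the identifiers order is not stated, and the parts of cell composition and of that order in these differences were not tested.

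**Figure D3:**
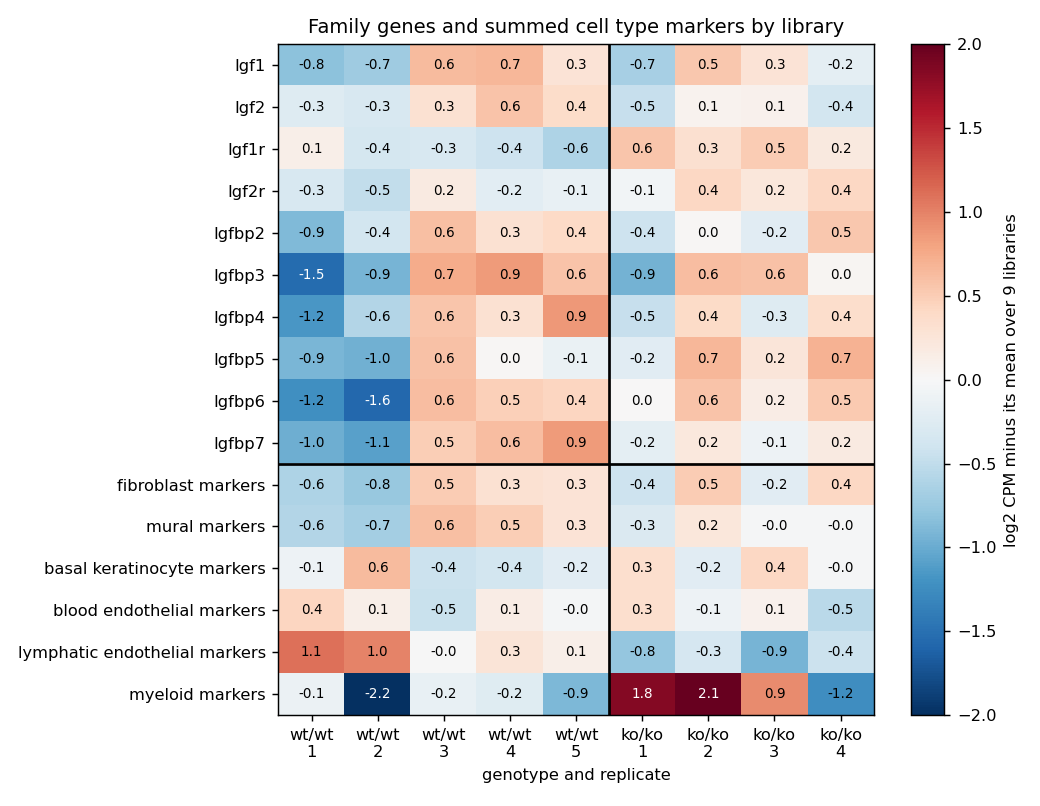
Colour and number give log2 CPM minus its mean over the 9 libraries, for each family gene (upper rows) and each summed marker list (lower rows), by genotype and replicate. Igf1, the binding proteins and the fibroblast and mural markers are all low (blue) in wt/wt replicates 1 and 2. In ko/ko replicate 1 most of them are below their mean, with Igfbp6 at 0.01, and in ko/ko replicate 3 the fibroblast markers are at -0.22 while Igf1 is at 0.27.

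When these 3 libraries were left out, a choice made after their levels were seen, 2 of the 10 members passed the adjusted threshold, in a fit that called 13.4% of all 18031 genes tested (8.4% higher and 5.02% lower in ko/ko). Igf1r was higher in ko/ko (log2 fold change 0.80, adjusted p = 0.00777) and Igfbp7 lower (-0.55, adjusted p = 0.0322) in that edgeR fit to 3 libraries a genotype. For Igfbp7 the libraries left out were its 3 lowest, with more from wt/wt than from ko/ko. Its p-value in that fit is therefore not independent of the choice. That of Igf1r also comes from a choice made after the levels were seen. Igf2 and Igf2r came to -0.47 (adjusted p = 0.0803) and 0.41 (adjusted p = 0.0887). At an unadjusted p under 0.05, 4 of the 10 members passed there, against 30.5% of all genes.

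Divided by the summed fibroblast markers, Igfbp5 was the member whose values no longer overlapped between genotypes. Per 1000 CPM of fibroblast markers it had 14.0, 14.8, 18.0, 14.1 and 13.0 CPM in wt/wt replicates 1 to 5 and 19.6, 19, 23.5 and 20.7 CPM in ko/ko replicates 1 to 4. Every ko/ko value lay above every wt/wt value, as it did for 0.504% of genes tested on the same measure, of which 1.27% separated in either direction. The measure was chosen after the levels had been seen and carries no test. Its divisor rests largely on Dcn, which averaged 15946 of 25729 CPM in wt/wt and 17100 of 27472 CPM in ko/ko. Igf1r overlapped on it, with 1.69 to 5.24 in wt/wt and 2.70 to 6.17 in ko/ko, as did the remaining 8 members.

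The mixture of binding-protein transcripts was dominated by Igfbp6 in every library. Summed over Igfbp2 to Igfbp7, binding-protein transcripts reached 266 to 899 RPKM in wt/wt and 528 to 828 RPKM in ko/ko. The share of Igfbp6 in that sum was 50.6%, 40.1%, 54.5%, 55.0% and 53.2% in wt/wt replicates 1 to 5 and 60.6%, 57.1%, 55.2% and 55.7% in ko/ko replicates 1 to 4. All ko/ko shares lay above all wt/wt shares, but only narrowly, with 55.2% as the lowest ko/ko and 55.0% as the highest wt/wt share. How often a share of this kind separates the genotypes among other genes was not computed, and no test was made. Igfbp7 took 9.30% to 13.3% of the sum in wt/wt and 8.22% to 9.83% in ko/ko, and Igfbp5 8.11% to 14.1% and 11.6% to 14.1%. Igfbp2 had its highest share, 20.2%, in wt/wt replicate 2, the library with the lowest share of Igfbp6. Relative to the summed ligands, binding-protein RPKM was 9.14 to 14.4 times as high in wt/wt and 11.6 to 20.5 times in ko/ko, with overlap.

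**Figure D4:**
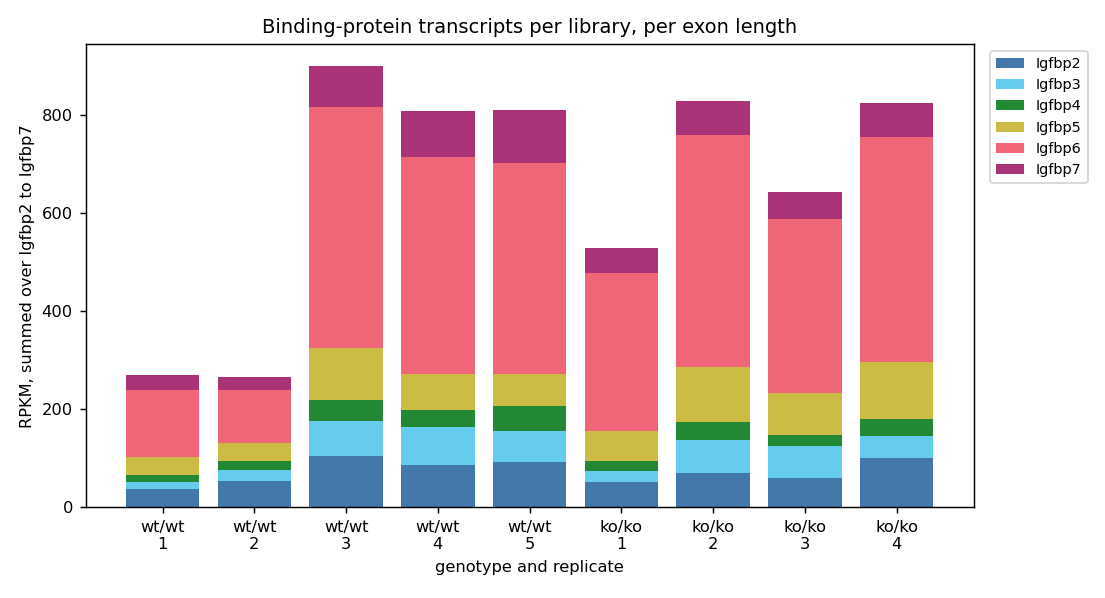
Stacked bars give RPKM of Igfbp2 to Igfbp7 in each library (linear axis from 0), by genotype and replicate. Igfbp6 takes 40.1% to 60.6% of each bar, and the bars of wt/wt replicates 1 and 2 are the lowest, at 270 and 266 RPKM.

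Of 6 further symbols (Igfbp1, Igfals, Insr, Insrr, Igfbpl1 and Igflr1), only Insr and Igfals passed the filter. Igfals, the acid-labile subunit that completes the serum IGF complex, averaged 1.34 ± 0.869 (SD, n = 5) in wt/wt against 0.827 ± 0.695 (SD, n = 4) in ko/ko on the CPM scale (log2 fold change -0.71, SE 0.77). Igfbp1, a binding protein of liver, had 2 counts in wt/wt replicate 1, 3 counts in ko/ko replicate 4 and none in the other 7 libraries. Igflr1 had 0 counts in all 9 libraries.

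Downstream of the receptors, 37 genes of insulin and IGF signalling were all tested, and none passed the adjusted edgeR threshold. At an unadjusted p under 0.05, 10 were higher and 2 lower in ko/ko, against 8.86% and 6.42% of all genes. The median log2 fold change of the list was 0.25 with 26 of 37 values positive (30 with library totals alone), against -0.03 and 47.4% positive over all genes. With the exon-length trend removed, the list's median was 0.12, and 9 were higher and 2 lower at the unadjusted mark. DESeq2 called 3 of the 37 higher and none lower and weighted limma voom called 7 higher and none lower. Over all genes, DESeq2 called 2.53% higher and 1.11% lower, and weighted limma voom 6.6% and 3.17%.

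Genes of the list with the smallest p-values included 2 transcription factors that insulin and IGF signalling hold inactive. Foxo1, a forkhead factor excluded from the nucleus by AKT, averaged 43.0 ± 7.24 (SD, n = 5) in wt/wt against 78.4 ± 6.87 (SD, n = 4) in ko/ko on the CPM scale. Its libraries did not overlap, and its log2 fold change was 0.87 (SE 0.15; edgeR adjusted p = 0.0951, DESeq2 adjusted p = 0.000132). All ko/ko libraries lay above all wt/wt libraries for 4 of the 37 genes, Foxo1 and Pik3ca among them, and for 3.51% of all genes tested. Foxo3, a second forkhead factor, had a value of 0.65 (SE 0.16), and Sos1, the exchange factor that loads RAS, 0.87 (SE 0.25), with edgeR adjusted p of 0.142 and 0.174. DESeq2 called all 3 of these genes. Pik3ca, a catalytic subunit of PI3K, averaged 31.6 ± 5.54 CPM in the 5 wt/wt libraries and 44.4 ± 3.21 CPM in the 4 ko/ko libraries (SD), without overlap. Its value was 0.49 (SE 0.15; edgeR adjusted p = 0.199, DESeq2 adjusted p = 0.0705). Of the docking proteins, Irs1 had a value of -0.43 (SE 0.25) and Irs2 of 0.08 (SE 0.18), named here after their values were seen.

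**Figure D5:**
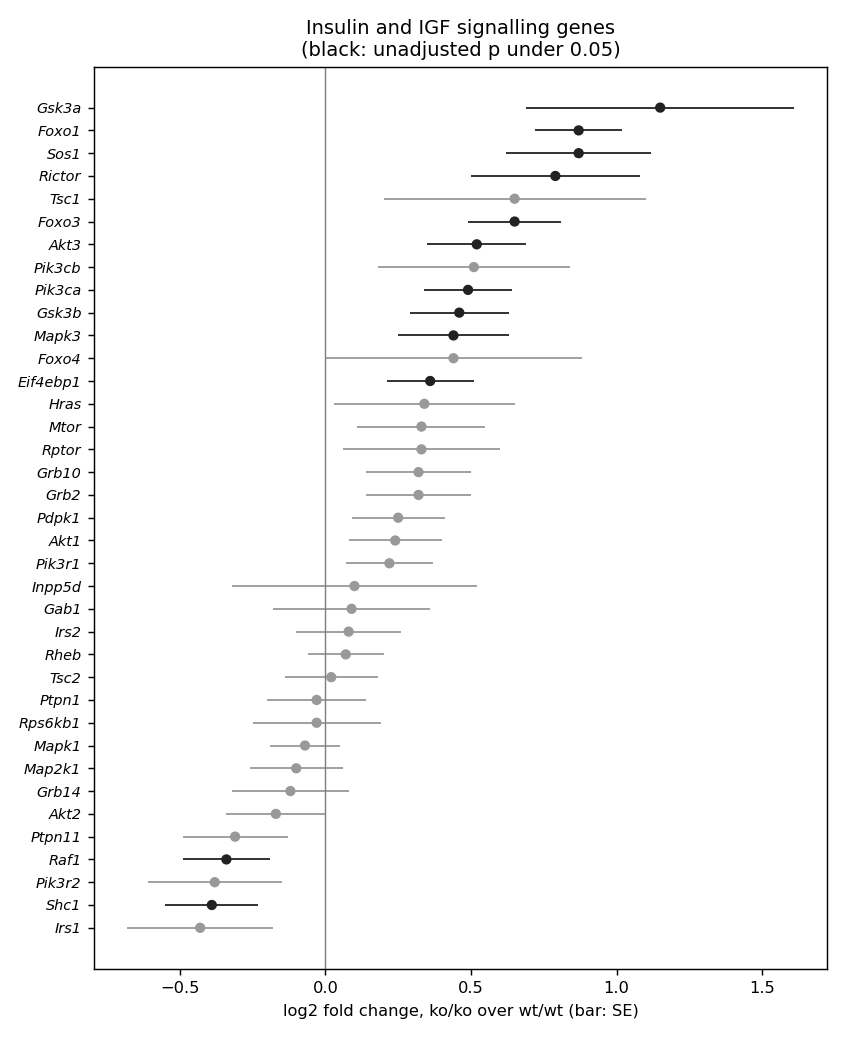
Each row is a gene of the insulin and IGF signalling list; the point is its edgeR log2 fold change, ko/ko over wt/wt (horizontal axis), the bar its SE, and black marks an unadjusted p under 0.05. Of 37 genes, 26 lie to the right of 0, and 10 black points are on that side against 2 on the other.

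Proteases that cleave binding proteins, with their inhibitors, formed a list of 20 genes, of which 18 were tested and none passed the adjusted edgeR threshold. At the unadjusted mark 4 of the 18 were higher and none lower in ko/ko, against 8.86% and 6.42% of all genes, and the median was 0.13, or -0.02 in weighted limma voom. Those 4 were Adam12 (1.30, SE 0.38), a metalloprotease reported to cleave IGFBP3 and IGFBP5, the PAPP-A inhibitor Stc2 (0.55, SE 0.22), the membrane metalloprotease Mmp14 (0.49, SE 0.20) and the plasminogen activator Plat (0.52, SE 0.21). Adam12 was scarce, at 1.17 ± 0.177 CPM (SD, n = 5) and 2.89 ± 1.33 CPM (SD, n = 4), and DESeq2 called it alone of the list (adjusted p = 0.0476; edgeR adjusted p = 0.182). Weighted limma voom called only Stc1, a second PAPP-A inhibitor (0.50, adjusted p = 0.0488). Over all genes, DESeq2 called 2.53% higher in ko/ko and weighted limma voom 6.6%. Pappa, the protease of IGFBP4 itself, averaged 10.3 ± 3.14 CPM (SD, n = 5) and 11.8 ± 3.18 CPM (SD, n = 4).

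Regulators of Igf2 and imprinted neighbours formed a list of 10 genes. Of these, 9 were tested, and all 9 had positive values with a median of 0.29. None passed the adjusted edgeR threshold, and 2 of the 9 passed the unadjusted mark on the higher side, where 8.86% of all genes did: Plagl1, an imprinted zinc finger factor that regulates imprinted genes (0.72, SE 0.29), and Igf2bp3, an RNA-binding protein of Igf2 mRNA (1.08, SE 0.43). Ctcf, which insulates Igf2 from its enhancers on the maternal allele, had 0.29 (SE 0.15), and Igf2bp1 0.52 (SE 0.36). Igf2bp3 was scarce, at a mean of 1.17 CPM in wt/wt and 2.49 CPM in ko/ko. So was Igf2bp1, at 0.992 and 1.42 CPM, and the values of both rest on few counts. DESeq2 called none of the 9, and weighted limma voom called Igf2bp3 (adjusted p = 0.0253) and Ctcf (adjusted p = 0.0478) higher, as it did 6.6% of all genes. H19, the non-coding RNA next to Igf2, averaged 5.47 ± 1.84 CPM (SD, n = 5) and 5.75 ± 2.01 CPM (SD, n = 4).

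Of the growth hormone axis, which drives Igf1 transcription in liver, all 8 genes were tested and none passed the adjusted edgeR threshold. The values were split, with 4 positive and 4 negative and a median of 0.03. Socs3, a cytokine-signalling inhibitor, was the gene past the unadjusted mark, at 1441 ± 361 (SD, n = 5) in wt/wt against 998 ± 108 (SD, n = 4) in ko/ko on the CPM scale (-0.53, SE 0.20; edgeR adjusted p = 0.248). Over all genes, 6.42% passed that unadjusted mark on the lower side. DESeq2 called none of the 8, and weighted limma voom called Socs3 lower (adjusted p = 0.0472), as it did 3.17% of all genes. Jak2, Socs2 and Socs1 had values of 0.37 (SE 0.23), 0.31 (SE 0.21) and -0.16 (SE 0.15). Ghr, the growth hormone receptor, averaged 129 ± 12.8 CPM (SD, n = 5) and 118 ± 22.7 CPM (SD, n = 4).

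The 8 genes of matricellular and related proteins that carry an IGFBP-type domain had a median of -0.21, with 3 positive values. No gene of this list passed either mark in edgeR, and neither DESeq2 nor weighted limma voom called any. The abundant Ccn1, a matrix protein that binds integrins, had -0.28 (SE 0.15), the endothelial Esm1 -1.41 (SE 0.79), Ccn6 -0.67 (SE 0.60) and Ccn3 0.31 (SE 0.35). Esm1 and Ccn6 averaged under 1 CPM in both genotypes, so their values rest on few counts.

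Across the 9 libraries, the genes most like the 3 most abundant binding proteins were ranked by Pearson correlation of log2 CPM over 9749 genes with a mean of at least 10 CPM. The values describe these libraries, which share preparation and cell mixture, and carry no test. Igfbp6 was most like Cd34 (r = 0.987, Spearman's rho = 0.950), a surface glycoprotein of progenitors and stromal cells, then Scarb2 (r = 0.983, rho = 0.767) and Mfap4 (r = 0.979, rho = 0.933). Without the 2 libraries farthest from the median of Igfbp6, these r values were 0.886, 0.722 and 0.851. Igfbp5 was most like the collagen receptor Ddr2 (r = 0.984, rho = 0.967), Selenon (r = 0.983, rho = 0.950) and the metalloprotease inhibitor Timp2 (r = 0.969, rho = 0.950), with r of 0.984, 0.957 and 0.886 without the 2 farthest libraries. Igfbp2 was most like Ap1s1 (r = 0.968, rho = 0.933), Hacd3 (r = 0.958, rho = 0.867) and 1110008P14Rik (r = 0.957, rho = 0.983), with r of 0.968, 0.939 and 0.986.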

How the data were processed

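Polyadenylated RNA was amplified with a SMARTseq2 protocol and sequenced on a NextSeq 500, per the labels' protocols. The authors deposited raw read counts per gene, 1 column per sample, and the exon length of each gene as another deposited column. Reads were processed with GSNAP and featureCounts 1.6.2 on mm10, per the submitters' processing notes. How strand and multi-mapped reads were handled is not given in the sources used here. Of 49763 rows, 92 spike-in rows were left out. Symbols were matched to GENCODE M21 for 49326 of the remaining rows. The smallest chi-square per degree of freedom between libraries was 23.9, so none were duplicates. Intervals and floors, where depth is named, cover counting error only.

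From the counts, edgeR 4.0.16 (R 4.3.3) was run with filterByExpr, TMM factors, a robust two-sided quasi-likelihood test and Benjamini-Hochberg adjustment over all 18435 genes; 31236 were removed. Standard errors (SE) were obtained by dividing the size of each log2 fold change by the root of its F statistic. CPM uses TMM-adjusted library sizes, and RPKM divides it by exon length. The code was tested on simulated counts. DESeq2 1.42.0, limma 3.58.1 voom, other factors and filters, and left-out libraries were alternatives; removal of the length trend (loess, span 0.3) and of 3 libraries together was added after seeing the data. The members and lists were chosen with earlier results of these data known. Named were all members, up to 4 genes per list by p-value (called genes first), and the 3 genes most correlated with each of the 3 members of highest mean RPKM; other genes were named after their values were seen. A gene of the signalling list is not reported here, and the counts for that list are without it.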

Additional observations from a re-analysis of the deposited data

Results flagged for a closer look

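In 114 groups of 4 or 5 libraries, over the family genes and the genes named beside them, 2 libraries stood far from the rest of their group on Dixon's criterion, where chance alone gives about 1 in 20 groups, or 5.7. Ccn1 had a log2 CPM of 11.1 in ko/ko replicate 4 and 10.8 to 10.9 in the other ko/ko libraries. Esm1 had a log2 CPM of -4.3 in wt/wt replicate 1, close to a single count, and -0.358 to 0.79 in the other wt/wt libraries. None of the 10 family genes had such a library.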

How the results depend on the processing

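The 10 log2 fold changes kept direction and side of the threshold in 201 of 230 recomputed values, passed the threshold in 4 and turned sign in 25, and for 22 other named genes 478 of 500 values did. Genes called, 1 in the edgeR test, came to 4 with library totals alone, 28 with no filter, 630 in DESeq2, 1802 in weighted voom, 7 when the 3 libraries with most reads of the Gm10800 group were left out, 2420 without ko/ko replicate 1 and wt/wt replicates 1 and 2, and 0 to 12 with each library left out (12 without ko/ko replicate 4, 0 without any other). Members called, 0 in the edgeR test, came to 1 in DESeq2, 1 in weighted voom and 2 without those wt/wt and ko/ko libraries. Members at an unadjusted p under 0.05, 2 in the edgeR test, came to 1 with the length trend removed, 4 without those libraries and 1 to 3 with each library left out (1 without ko/ko replicate 2 or 4). The leave-one-out value of Igf1r stayed between 0.63 and 0.83, with edgeR adjusted p from 0.0715 to 0.317. Signs turned with library totals alone for Igf1 (0.05), Igfbp2 (0.04), Igfbp3 (0.12) and Igfbp4 (0.00), with the stricter filter for Igfbp3 (0.03), in unweighted voom for Igfbp3 (0.14), Igfbp4 (0.02) and Igfbp7 (0.04), in weighted voom for Ccn3 (-0.05), without the Gm10800-rich libraries for Igf1 (0.10) and Igfbp3 (0.15), and for Igfbp6 without the other 3 (-0.08). With each library left out, Igf1 ran from -0.28 to 0.09, Igfbp2 from -0.30 to 0.08, Igfbp3 from -0.25 to 0.22, Igfbp4 from -0.31 to 0.13 and Igfbp7 from -0.36 to 0.06. The cause was not tested. In CPM in place of RPKM, Igf1 led the order in wt/wt and Igfbp5 in ko/ko. No paired analysis was possible because the labels carry no replicate numbers, and those used here follow accession order.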
